A study of Mus musculus with 2 samples.

Results

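The 9 genes described here make up most of a pair of miRNA clusters known from pluripotent cells: Mir302b, Mir302c, Mir302a, Mir302d and Mir367 on chromosome 3, and Mir291a, Mir293, Mir294 and Mir295 of the Mir290 cluster on chromosome 7. They were chosen by name and position, through their Ensembl identifiers, among the 1973 genes counted. The measurements are read counts of RNA below 30 nt from whole stomach of B6NCrl mouse embryos at 14.5 days of development. There was 1 group of 2 biological replicates, each labelled as a single stomach taken on a different day, although the label for sex names males and females pooled. No genotype, treatment or age differed between them, so replicate and collection day cannot be told apart. The reads assigned to genes numbered 5004548 for replicate 1 and 4679914 for replicate 2. A level is a gene's counts scaled to 1000000 such reads (CPM), and ± marks the SD over both libraries (n = 2).

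Each cluster is transcribed as a long primary RNA from which several precursors (hairpins) are cut, and each hairpin yields a 5p and a 3p strand of which one is usually loaded into the silencing complex. Bases 2 to 8 of the loaded strand, the seed, select the target mRNAs. The Mir290 cluster is known as the dominant miRNA source of naive mouse embryonic stem cells and the Mir302-Mir367 cluster is known from the later, primed epiblast and from early endoderm. Through their main seed they are known to repress inhibitors of the cell cycle, while let-7 miRNAs, which rise on differentiation, act against the same stem cell programme.

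The mature sequences show which genes can act on the same targets, and how many bases tell one gene from another in a short read. They are from RefSeq (GRCm38.p6), written 5′ to 3′ with the seed in capitals, and 8 of the 9 genes have their 3p sequence here. The 3p strand of Mir302a, miR-302a-3p, is named alone.
miR-302b-3p: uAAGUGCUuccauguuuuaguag
miR-302c-3p: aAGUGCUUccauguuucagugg
miR-302d-3p: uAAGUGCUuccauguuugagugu
miR-367-3p: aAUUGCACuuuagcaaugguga
miR-291a-3p: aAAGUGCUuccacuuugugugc
miR-293-3p: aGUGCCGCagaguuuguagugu
miR-294-3p: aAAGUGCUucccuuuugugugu
miR-295-3p: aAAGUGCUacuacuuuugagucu

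Among the 8 genes with a 3p sequence here, the seed AAGUGCU occurred in the 3p strand of 5, Mir302b, Mir302d, Mir291a, Mir294 and Mir295, across both chromosomes. No further gene among the 1738 mature sequences of the RefSeq table had it, but miR-302a-3p is not among them, so this search leaves Mir302a out. The hairpin of Mir302a does hold the first 18 bases of miR-302b-3p, the seed included. The 3p strand of Mir302c starts 1 base later in the same stretch and so has the seed AGUGCUU. With that offset it shared 20 of 22 bases with miR-302b-3p and 20 of 22 with miR-302d-3p. Within the Mir290 cluster, miR-291a-3p and miR-294-3p shared 19 of 22 bases. The 3p strands of Mir293, seed GUGCCGC, and Mir367, seed AUUGCAC, stood apart, and miR-367-3p shared 9 of 22 bases with miR-302b-3p.

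On the 5p side the Mir302 genes were also alike. The seed CUUUAAC was that of Mir302b, Mir302c and Mir302d, and Mir302a differed from it with CUUAAAC.
miR-302b-5p: aCUUUAACaugggaaugcuuucu
miR-302c-5p: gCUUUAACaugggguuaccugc
miR-302d-5p: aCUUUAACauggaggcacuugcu
miR-302a-5p: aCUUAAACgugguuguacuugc
The deposited counts are per gene and do not separate the 5p from the 3p strand, so a level below is that of both strands of a hairpin.

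Whole hairpins are shown for 3 genes of the chromosome 3 cluster, with both mature strands in capitals, since Mir302b and Mir302d were among its abundant genes and Mir367 had no counts.
Mir302b: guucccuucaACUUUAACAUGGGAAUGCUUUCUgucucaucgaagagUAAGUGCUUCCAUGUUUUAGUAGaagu
Mir302d: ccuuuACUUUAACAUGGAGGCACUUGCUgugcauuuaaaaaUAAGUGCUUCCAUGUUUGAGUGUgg
Mir367: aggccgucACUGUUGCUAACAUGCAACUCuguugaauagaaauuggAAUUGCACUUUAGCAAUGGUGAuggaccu

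Reads that map to several places were counted for no gene, so shared sequence bears on these levels. From its 5′ end, miR-302b-3p ran with the hairpin of Mir302a for 18 of its 23 bases and differed from every other annotated mouse hairpin after that. For miR-302d-3p the shared start was 17 of 23 bases and for miR-302c-3p 16 of 22, both with Mir302b. It was 11 of 22 bases for miR-367-3p, miR-291a-3p and miR-294-3p, 9 of 23 for miR-295-3p and 8 of 22 for miR-293-3p. None of these 8 strands occurs whole in a second hairpin, although a read trimmed at its 3′ end to 18 bases would not tell Mir302b from Mir302a. Over whole hairpins, the longest stretch in common was 20 nt between Mir302a and Mir302b and 20 nt between Mir291a and Mir291b. Levels of these genes are uncertain to that extent.

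Both clusters were present at low levels in the stomach, and 5 of the 9 genes (55.6%) had 10 or more counts in both libraries, the threshold for detection used here. Over all genes counted, 18.3% passed that threshold. The detected genes were Mir302a, Mir302b, Mir302c, Mir302d and Mir293. Of the others, Mir291a, Mir294 and Mir295 had counts in both libraries and Mir367 had none in either. The 9 genes together held 133.7 CPM in replicate 1 and 133.3 CPM in replicate 2, or 0.0134% of gene counts. In a whole organ, fewer cells of a type and less RNA per cell cannot be told apart.

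**Figure D1:**
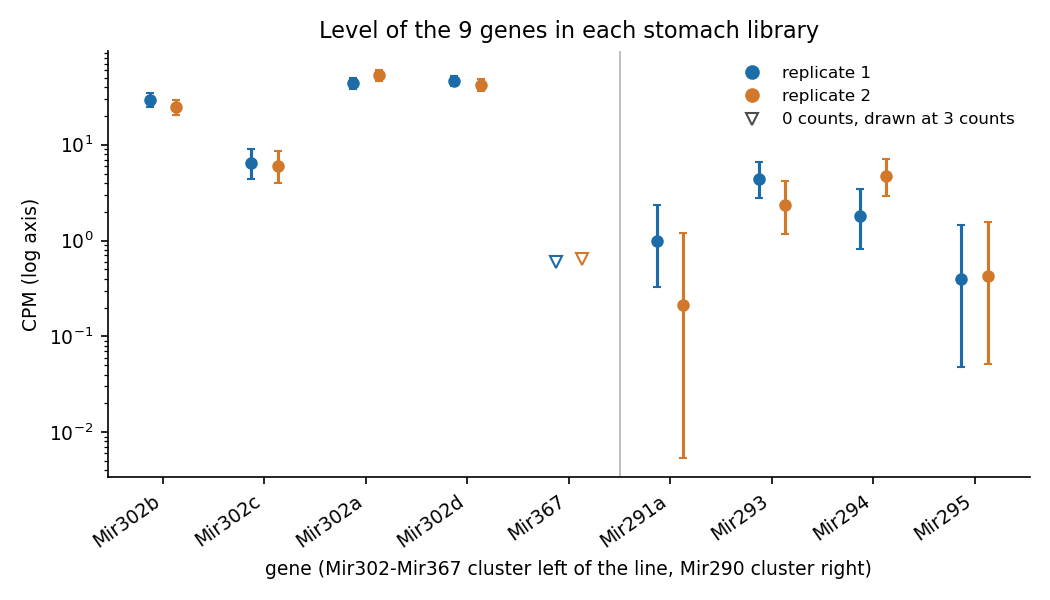
Level of each gene in CPM on a log axis, for replicate 1 (blue) and replicate 2 (orange), with exact 95% Poisson intervals of the count. Mir302a, Mir302d and Mir302b lie between 24.6 and 53.0 CPM, Mir302c and the genes of the Mir290 cluster lie at 6.39 CPM or less, and Mir367, with 0 counts, is drawn as open triangles at the level of 3 counts.

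Mir302a (ENSMUSG00000065552.1, chromosome 3, 127545496 to 127545564, plus strand) had 219 counts in replicate 1 and 248 in replicate 2, which is 43.8 and 53.0 CPM. Mir302d (ENSMUSG00000065447.1, 127545624 to 127545689) had 232 and 197 counts, 46.4 and 42.1 CPM. These genes of the main stem cell family led the cluster at 48.4 ± 6.53 and 44.2 ± 3.01 CPM (SD, n = 2), and since Mir302d was higher in replicate 1 and Mir302a in replicate 2, their order is not set. Mir302b (ENSMUSG00000076252.1, 127545228 to 127545301) had 148 and 115 counts, 29.6 and 24.6 CPM. It was lower than both in each library, and its values did not overlap those of Mir302a or Mir302d. Mir302c (ENSMUSG00000065482.1, 127545363 to 127545430) had 32 and 28 counts, 6.39 and 5.98 CPM. Mir302d exceeded Mir302c 7.25-fold in replicate 1 and 7.04-fold in replicate 2, a difference far larger than the spread between libraries.

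Mir367 (ENSMUSG00000065413.2, 127545733 to 127545807), the gene of the cluster with a different seed, had 0 counts in both libraries. A count of 0 allows up to 3 counts, or 0.599 CPM in replicate 1 and 0.641 CPM in replicate 2. Set against that limit in each library, Mir302d was 77.3-fold and 65.7-fold higher, and Mir302c, the lowest of the detected genes in the cluster, 10.7-fold and 9.33-fold higher. These folds leave out the counting error of the higher gene. The exact 95% Poisson interval of Mir302c reached down to 21.9 and 18.6 counts, and that of Mir367 reached up to 3.69 counts in each library. The 3p strand of Mir367 shares its first 11 bases at most with another hairpin.

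All 5 precursors of this cluster lie on the plus strand within 580 nt, inside an intron of Larp7 (chromosome 3, 127536714 to 127553349), a gene of the minus strand, and thus antisense to it. Levels did not follow a single trend along the primary RNA. In the order of transcription they were 27.1 ± 3.54 CPM for Mir302b, 6.19 ± 0.29 for Mir302c, 48.4 ± 6.53 for Mir302a, 44.2 ± 3.01 for Mir302d and 0 for Mir367. Mir302c thus stood below both of its neighbours in each library, and no reads were assigned to the last hairpin.

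**Figure D2:**
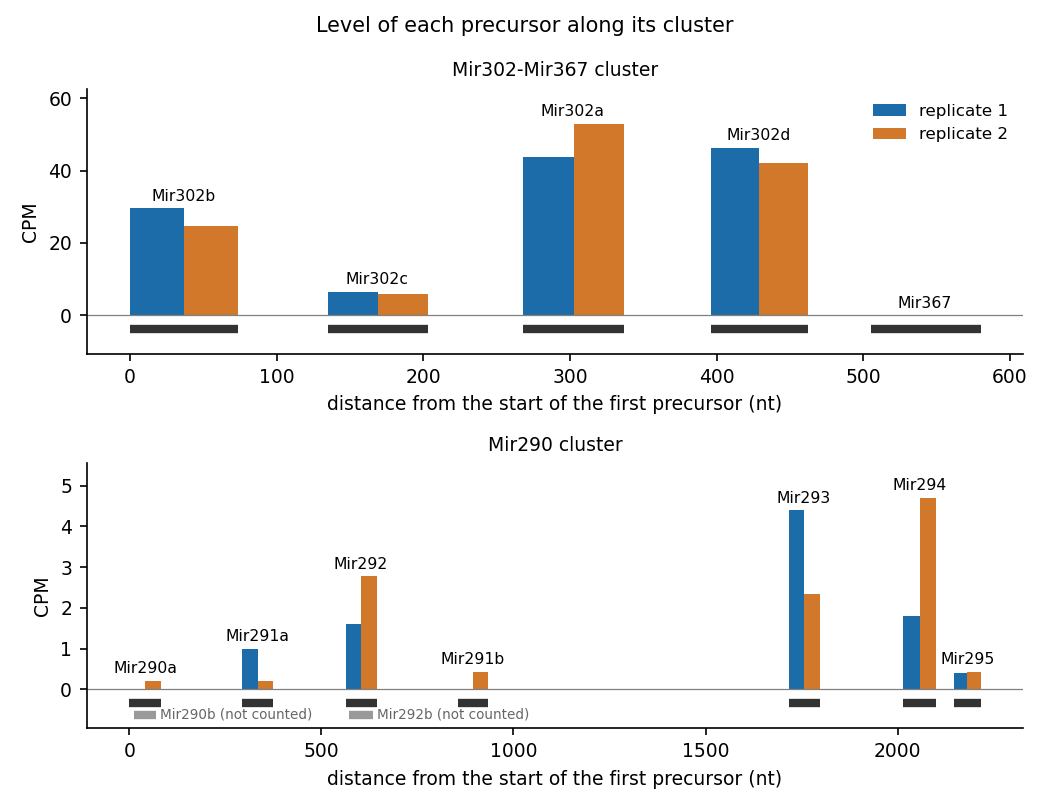
Level in CPM at the position of each precursor (bars, left part replicate 1 and right part replicate 2). Position is the distance in nt from the start of the first precursor of its cluster. Strips are dark for genes counted and grey for genes not counted, and strips of minus-strand hairpins are set lower. Mir302c is low between Mir302b and Mir302a, Mir367 has no bar, and the Mir290 cluster on its own scale reaches 4.70 CPM, with Mir290b and Mir292b not among the genes counted.

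Within the cluster total of 631 counts in replicate 1 and 588 in replicate 2, the same 3 genes held most of the counts in both libraries. Mir302a held 34.7% in replicate 1 (exact 95% binomial interval 31.0 to 38.6%) and 42.2% in replicate 2 (38.1 to 46.3%). Mir302d held 36.8% and 33.5%, Mir302b 23.5% and 19.6%, and Mir302c 5.07% and 4.76%. The intervals of the libraries overlapped for every gene of the cluster, for Mir302a by a narrow margin. For Mir367 the limit of 3 counts is a share of 0.475% in replicate 1 and 0.510% in replicate 2. Its exact 95% binomial interval reached up to 0.583% in replicate 1 and 0.625% in replicate 2. These intervals and limits cover counting error only, since the reads carry no molecular identifiers.

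The Mir290 cluster was lower. Mir293 (ENSMUSG00000078035.1, chromosome 7, 3220343 to 3220422, plus strand), whose 3p seed differs from that of its neighbours, had 22 counts in replicate 1 and 11 in replicate 2, 4.40 and 2.35 CPM. Mir294 (ENSMUSG00000077903.1, 3220641 to 3220724), known as a leading miRNA of naive stem cells, had 9 and 22 counts, 1.80 and 4.70 CPM. These genes traded places between the libraries, and their means of 3.37 ± 1.45 and 3.25 ± 2.05 CPM did not differ beyond the spread. Mir291a (ENSMUSG00000078008.1, 3218919 to 3219000) had 5 and 1 counts, and Mir295 (ENSMUSG00000077886.1, 3220773 to 3220841) had 2 in each, so both were near the limit of the depth and their order cannot be told. In GENCODE M21 the 4 hairpins lie antisense to an exon of Nlrp12 (3218784 to 3249740, minus strand), within its untranslated part.

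The other genes of the Mir290 cluster were as sparse. Mir292 had 8 counts in replicate 1 and 13 in replicate 2, Mir290a 0 and 1, and Mir291b 0 and 2. None reached the threshold for detection. Mir290b and Mir292b, annotated on the opposite strand of Mir290a and Mir292, are not among the genes counted, and the opposite-strand counts of Mir290a and Mir292 were 0 in both libraries. The 9 genes likewise had 0 opposite-strand counts in both libraries, so their levels come from their own strand alone.

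Despite the exchange between Mir293 and Mir294, the 4 genes summed to 38 counts in replicate 1 and 36 in replicate 2, 7.64 ± 0.070 CPM. Mir294 made up 23.7% of that sum in replicate 1 (exact 95% binomial interval 11.4 to 40.2%) and 61.1% in replicate 2 (43.5 to 76.9%), and these intervals did not overlap. Mir293 made up 57.9% and 30.6%, with intervals that did.

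**Figure D3:**
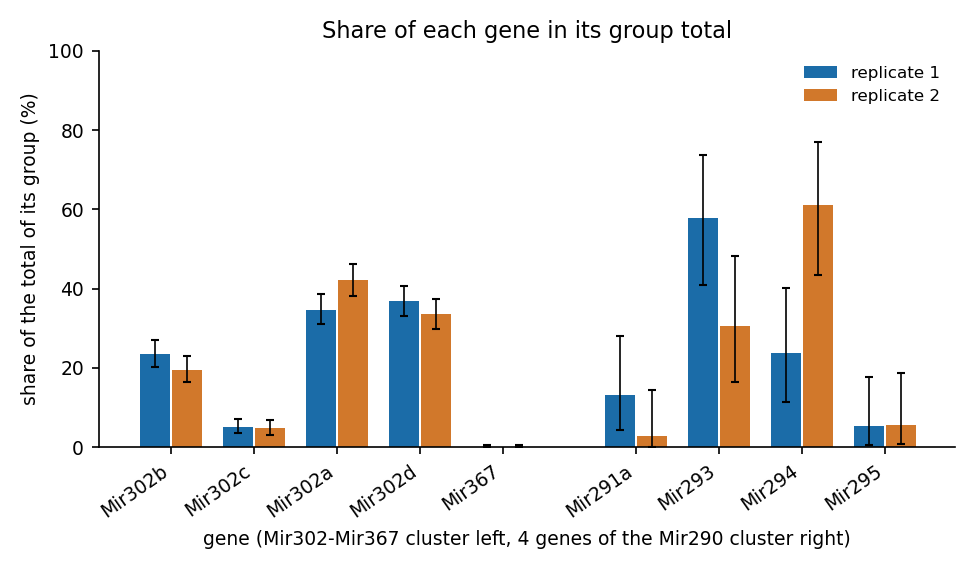
Share in percent of each gene in the summed counts of its group, for replicate 1 (blue) and replicate 2 (orange), with exact 95% binomial intervals. In the Mir302-Mir367 cluster the bars of the libraries are close, with Mir302a and Mir302d each above 33%, whereas Mir294 has 23.7% of the small Mir290 sum in replicate 1 and 61.1% in replicate 2.

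The Mir302-Mir367 cluster exceeded the 4 Mir290 genes 16.6-fold in replicate 1 and 16.3-fold in replicate 2, a log2 ratio of totals of 4.04 ± 0.02 (SD, n = 2). With all 7 counted genes of the Mir290 cluster the ratio was 13.7-fold and 11.3-fold, a log2 ratio of 3.64 ± 0.20. The Mir302-Mir367 cluster was thus the higher in both libraries. The SD of the ratio does not measure counting error, and the sums of the 4 Mir290 genes rest on 38 and 36 counts. Without Mir302a the log2 ratio was 3.34, and without Mir293 or Mir294 it was 4.93 or 4.92. An exact permutation test over 2 libraries cannot reach a threshold, so none was made.

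In order of level the 9 genes were Mir302a, Mir302d, Mir302b, Mir302c, Mir293, Mir294, Mir291a, Mir295 and Mir367. The library values of neighbours overlapped for Mir302a and Mir302d, for Mir293 and Mir294, and for Mir291a and Mir295. They did not overlap for the other neighbours, although those of Mir295 and Mir367 are 2 counts against 0. Counting error leaves further neighbours unsettled. The exact 95% Poisson intervals of Mir302c and Mir293 overlapped in both libraries. Those of Mir294 (4.1 to 17.1 counts) and Mir291a (1.6 to 11.7 counts) overlapped in replicate 1. CPM were not divided by length because each read covers a mature strand, and the order was the same per 100 nt of hairpin. Among the 361 detected genes Mir302a ranked 234 and Mir293 ranked 339. The genes nearest to Mir302a in level were Mir760 (51.7 CPM) and Mir452 (49.3 CPM) above it and Mir19a (48.2 CPM) and Mir92-2 (46.8 CPM) below it. Around Mir293 were Mir184 and Mir1964 (3.52 CPM each), Mir3086 (3.32 CPM) and Mir544 (3.21 CPM). Likeness of pattern cannot be measured over 2 libraries.

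The seeds of both clusters have relatives that are widespread in proliferating tissue, and these were far more abundant. The Mir17 family has the seed AAAGUGC in its 5p strand, which is that of Mir302b and Mir294 moved by 1 base, as a pair of its sequences shows.
miR-17-5p: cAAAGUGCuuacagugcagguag
miR-20a-5p: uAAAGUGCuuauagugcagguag
Mir17, which promotes proliferation, had 19135 CPM in replicate 1 and 22626 CPM in replicate 2. Mir20a had 7992 ± 784 CPM, Mir93 6860 ± 418 CPM and Mir106b 6419 ± 434 CPM. The X-linked genes of this seed, named after their values were seen, were of another order, with Mir106a at 28.3 ± 7.77 CPM and Mir20b at 19.7 ± 4.44 CPM. The library values of Mir106a, 22.8 and 33.8 CPM, overlapped those of Mir302b. Genes with the seed AAAGUGC summed to 42199 ± 3249 CPM and genes with the seed AAGUGCU to 75.6 ± 5.03 CPM, a 504-fold difference in replicate 1 and 618-fold in replicate 2. The second sum leaves out Mir302a, whose 3p sequence was not used here. With Mir302a added, which was tried only once the values were known, the difference was 325-fold in replicate 1 and 356-fold in replicate 2. Both sums count the 2 strands of each hairpin.

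Relatives of Mir367 were also present, while Mir367 itself had no counts. The seed AUUGCAC is shared by 6 other genes, among them Mir25 and Mir363 of the Mir17 paralogue clusters.
miR-25-3p: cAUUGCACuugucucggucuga
miR-363-3p: aAUUGCACgguauccaucugua
Mir25 had 769 CPM in replicate 1 and 806 CPM in replicate 2, and Mir363, the lowest of the 6, had 23.6 and 24.6 CPM. Mir92-1 had 2359 ± 136 CPM, Mir92b 263 ± 36.1 CPM, Mir32 178 ± 4.41 CPM and Mir92-2 46.8 ± 2.07 CPM. The strand miR-92a-3p occurs whole in both Mir92-1 and Mir92-2, so these levels leave out reads that fit both. The 6 genes summed to 3659 ± 197 CPM. Set against the limit of 3 counts for Mir367, Mir363 alone was 39.3-fold higher in replicate 1 and 38.3-fold in replicate 2, without its own counting error.

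**Figure D4:**
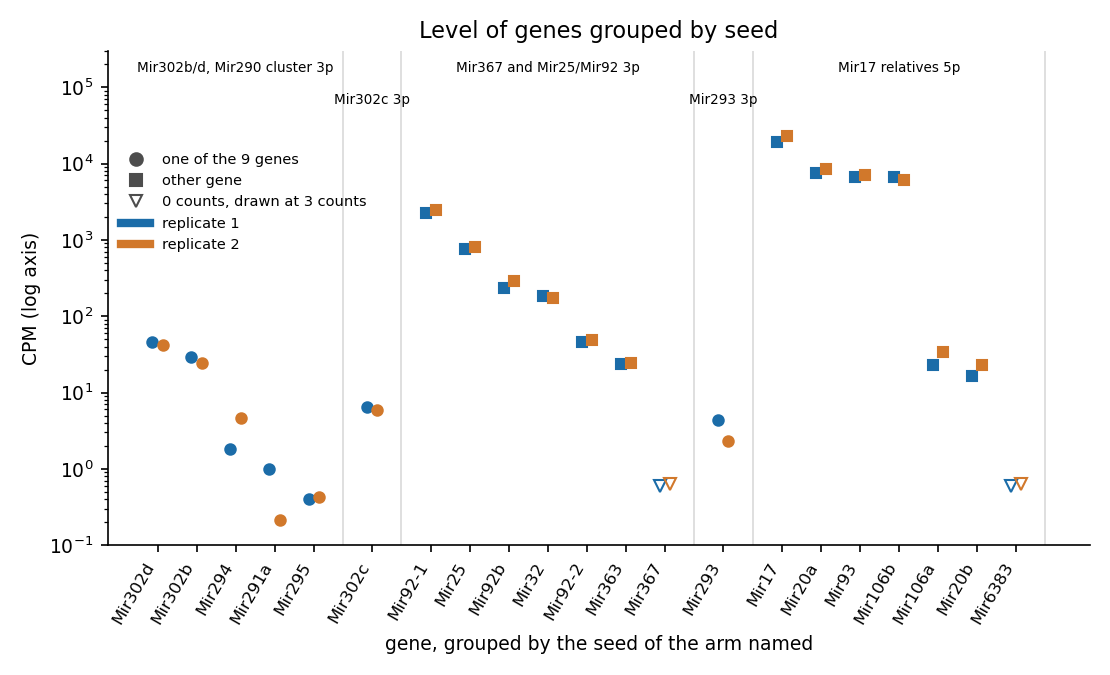
Level in CPM on a log axis of genes grouped by the seed of the arm named, for replicate 1 (blue) and replicate 2 (orange), with circles for the 9 genes, squares for other genes and open triangles at 3 counts for genes with 0 counts. Mir302d and Mir302b lie near Mir106a and Mir20b and far below Mir17, Mir20a, Mir93 and Mir106b, and Mir367 has no counts beside 6 genes between 23.6 and 2456 CPM. Mir302a is not drawn here.

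Beside other lists of miRNAs tied to growth or differentiation, the 9 genes were a small part of the profile. The let-7 family, with 10 of its 12 genes counted and all 10 detected, summed to 90773 ± 1313 CPM, 672-fold and 688-fold the sum of the 9 genes. Its leading genes are Mirlet7g, Mirlet7i, Mirlet7d and Mir98. Mir145a, known as a repressor of pluripotency factors, had 2891 CPM in replicate 1 and 2787 CPM in replicate 2. All 15 genes of the Mir17 clusters were detected and summed to 49712 ± 3361 CPM, 354-fold and 391-fold the sum of the 9 genes. Several genes of the let-7 and Mir17 lists share hairpin sequence, which their totals leave uncounted.

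The markers of the labelled tissue were abundant. The smooth muscle genes Mir143 and Mir145a held 15.5% ± 1.25 of gene counts, with 152490 CPM for Mir143 and 2839 CPM for Mir145a. The Mir200 family of epithelium held 4.15%, the squamous epithelial genes Mir205 and Mir203 1.66% and 4 mesenchymal genes 1.52%. Mir375, a marker of endocrine and gastric epithelium, had 5115 ± 617 CPM. Markers of other tissues were also measured. Of 8 striated muscle genes 4 were detected, with 116.7 CPM in sum in replicate 1 and 102.1 CPM in replicate 2. Mir208b alone held 95.1 and 86.3 CPM of these sums. Mir133a-1 and Mir133a-2 had 0 counts. Reads that map to several places were counted for no gene, and sequence shared by the striated muscle genes was not searched for. Low or 0 counts here thus do not show that a miRNA was absent. The liver miRNA Mir122 had 56.7 and 65.8 CPM. All 3 erythroid genes were detected, with 151 and 218 CPM in sum, as were all 3 leukocyte genes, with 560.1 and 598 CPM. Their part in the levels of the 9 genes was not tested.

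Finally the libraries were compared gene by gene, to see whether the low levels of these clusters differed between the libraries beyond counting error. Each side is 1 library, so the p-values and intervals cover counting error only and hold no spread between stomachs. An exact binomial test was run on every detected gene and its p-values were adjusted after Benjamini and Hochberg over all 361. None of the 5 genes tested passed an adjusted p of 0.05, while 42.1% of all detected genes did. Shares over all detected genes include genes with far more counts, where smaller ratios pass, such as Mir10a at a log2 ratio of 0.02. The 0 of 5 is thus no sign that these genes were steadier than others of their level. At a log2 ratio of 1 or more as well, 0 of the 5 and 1.11% of all genes passed. At an unadjusted p under 0.05 there was 1 of the 5, Mir302a, and 49.3% of all detected genes. Its log2 ratio of replicate 2 over replicate 1 was 0.28, with a 95% interval from 0.01 to 0.55. The exact binomial test gave it an adjusted p of 0.0867, and the alternatives to that test 0.0887 to 0.174.

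The other 4 had log2 ratios below 0. They were -0.27 for Mir302b (95% interval -0.63 to 0.09), -0.14 for Mir302d (-0.42 to 0.14), -0.10 for Mir302c (-0.88 to 0.68) and -0.90 for Mir293 (-2.09 to 0.20). The median over the 5 genes was -0.14, beside 0.04 over all detected genes. The intervals show what the depth could tell: a change of the size of Mir293 could not be told from none at 22 and 11 counts, whereas for Mir302a, Mir302b, Mir302c and Mir302d a ratio of 1 on the log2 scale lies outside the interval in either direction. Mir294 was not tested at this threshold, having 9 counts in replicate 1. At a minimum of 1 count in both libraries its log2 ratio of 1.39 had an adjusted p of 0.0484 by the exact binomial test, and with no minimum 0.0578. At that minimum of 1 count, 24.8% of all genes tested passed by adjusted p and 1.16% by the log2 ratio as well.

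**Figure D5:**
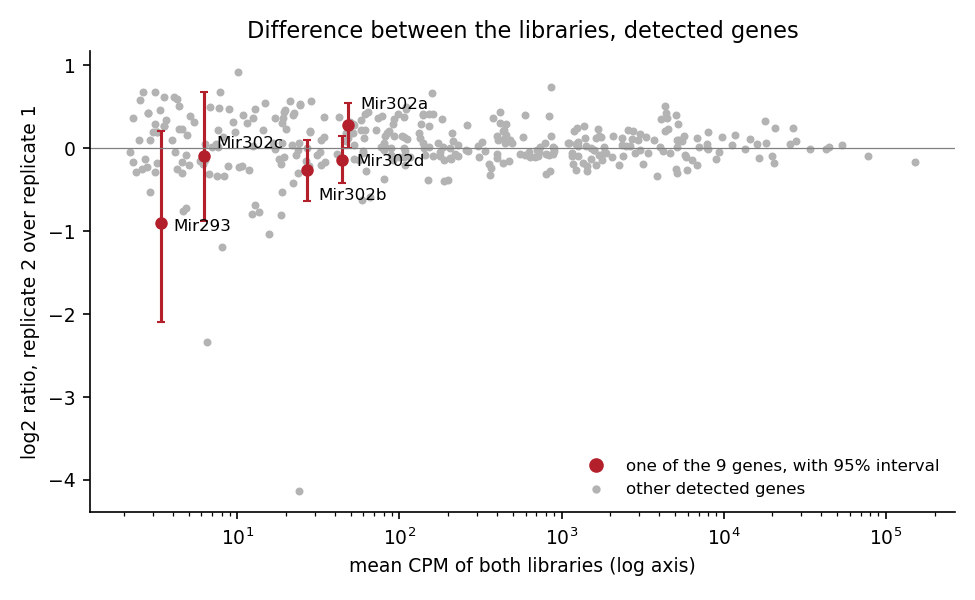
Log2 ratio of replicate 2 over replicate 1 against mean CPM (log axis) for the 361 detected genes (grey), with the 5 detected genes of the clusters in red and their 95% intervals. Mir302a lies at 0.28 and Mir302d at -0.14 among the other genes of their level, and the interval of Mir293 runs from -2.09 to 0.20.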

How the data were processed

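The deposited values are whole-number counts per gene, 1 table per library without a header, made on mm10 with the GENCODE M4 annotation from an alignment, per the text files deposited with the tables. The aligner and its version: not given in the sources used here, as for the counter. Of the 3 count columns the authors deposited, the last 2 separate the strands and add up to the first for all 1973 genes. The first was used. Lines that name no gene were left out of totals: unmapped reads (12.5% and 13.5% of reads in replicates 1 and 2), reads that map to several places (27.8% and 27.4%), reads outside genes (2.50% and 2.32%) and ambiguous reads (0).

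Symbols and coordinates are from GENCODE M21 (GRCm38, mm10), matched for 1894 genes. Shared sequence was searched among its 2202 miRNA hairpins on both strands. The whole genome was not searched. Mature sequences are from RefSeq (GRCm38.p6).

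Libraries were compared with a two-sided exact binomial test (scipy 1.17.1) with Benjamini-Hochberg adjustment over genes of 10 or more counts in both. It was checked on simulated counts that held counting error only, so the check does not bear on spread between stomachs. With 1 group no quasi-likelihood contrast exists. Scaling alternatives used edgeR 4.0.16 (TMM) and DESeq2 1.42.0 (size factors). Named genes are the 9 genes, the rest of the Mir290 cluster, genes that share a seed, up to 4 genes per list and the nearest genes in level. The genes and lists were chosen with earlier results of these data known.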

Additional observations from a re-analysis of the deposited data

How the results depend on the processing

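At a minimum of 1 count, 605 genes and 8 of the 9 genes described were detected. In the comparison of the libraries that minimum gave 7 genes past both thresholds, and of the 9 genes 1, Mir294, by adjusted p alone and 1 past both, beside 24.8% and 1.16% of all genes tested. The scaling sets the size of each level. The Mir302-Mir367 total was 129.4 CPM with the own-strand column, 200.4 CPM when the 5 most abundant genes were left out of the total and 84.7 CPM when the total included reads mapping to several places, and the Mir290 total was 7.86, 12.2 and 5.15 CPM. In single libraries the totals were 125.6 to 126.1 CPM and 7.59 to 7.69 CPM, and the log2 ratio between them 4.03 to 4.05. With every counted Mir290 gene that ratio was 3.64. Alternatives chosen after seeing the data left out 1 gene: without Mir302a the Mir302-Mir367 total was 77.5 CPM and the ratio 3.34, without Mir293 the Mir290 total was 4.27 CPM and the ratio 4.93, and without Mir294 these were 4.39 CPM and 4.92. Each of the 5 genes tested kept its direction between libraries and stayed above an adjusted p of 0.05 under the 6 alternatives to that test. Over all detected genes, 89 were higher in replicate 2 and 63 in replicate 1 by adjusted p, against 75 and 89 with TMM factors, 79 and 86 with size factors and 74 and 92 when the 5 most abundant genes were left out of the totals. Genes of fewer than 10 counts are limited by depth.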
